A study of Mus musculus with 6 samples.

Results

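Egg activation in mammals is driven by calcium, and 10 genes of this system are described here in S4U-labelled mouse embryos. They were chosen by name as Itpr1, Itpr2, Itpr3, Cacna1h, Trpm7, Atp2a2, Atp2b1, Stim1, Camk2g and Rgs2, which is 10 of the 23259 gene names counted, and each was found. At fertilization the sperm brings a phospholipase that makes inositol 1,4,5-trisphosphate (IP3), and IP3 opens receptor channels in the endoplasmic reticulum so that stored calcium is released in repeated waves. Pumps return calcium to the store or out of the cell, channels of the plasma membrane let calcium in to refill the store, and calmodulin-dependent kinase II passes the signal on to the cell cycle. In the mouse these waves end around the time the pronuclei form, and the transcripts of the egg are then cleared as the embryo's own genome takes over.

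3 groups were compared, Pabpn1l-null zygotes, wild-type (WT) 2-cell embryos and WT zygotes, with 2 samples each per the labels. PABPN1L binds poly(A) tails in the oocyte and zygote and acts in the decay of maternal mRNA. The labels give no strain, age or description of the null allele, and they do not say which parent carried it. All groups were labelled with 200 μM 4-thiouridine (S4U) for 2 h, and the shared protocol states 50 embryos per sample and a start 26 h after the ovulation-inducing hormone. That text speaks of zygotes for all samples, so when the 2-cell embryos were collected is not known here. S4U is taken up into RNA during transcription, and after alkylation its positions are read as C instead of T. A read with such a mismatch is called a T-to-C read below, and since no unlabelled control exists in the table, some share of these reads comes from sequencing error or sequence differences.

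The deposited table holds 1 column of total reads and 1 column of T-to-C reads per group. No difference below therefore has a replicate check, and each test compares the libraries of a pair of columns, not conditions. Reads on named genes numbered 1270347 in the null zygote column, 4020444 in the 2-cell column and 3001472 in the WT zygote column, with T-to-C shares of 3.86%, 4.54% and 3.03%. The null column had more zeros than its depth gives: among 1295 genes expected at 3 to 5 reads from their WT zygote level, 58.3% had no read, against 2.45% for independent reads, and the zeros corresponded to 6.71 to 7.36 reads per molecule. Every 7 reads were counted as 1 molecule in all columns, except in edgeR's exact test, an alternative that took reads as they were counted. The number rests on the null column alone, with the WT zygote level of each gene taken as exact. It was not estimated for the 2-cell and WT zygote columns. The 11 oocyte markers held 21829 reads in null zygotes, 12836 in 2-cell embryos and 39363 in WT zygotes, none of them at 0, and the 7 markers of the 2-cell embryo in the table held 8, 10537 and 55. Scaled for depth, in the RPM defined below, the oocyte markers were at 16492, 3314 and 13164 in the same order of groups. They were thus higher in null than in WT zygotes and lowest in 2-cell embryos, a difference that was not tested. The markers of the 2-cell embryo were at 6.04, 2720 and 18.4 RPM. Tcstv1 and Tcstv3 of the second list were at 0 in all columns. The 12 cumulus and granulosa markers summed to 42, 91 and 153 reads, with Amh, Ptx3, Tnfaip6, Inhba, Inha, Lhcgr and Cyp11a1 at 0 throughout, and the 8 sperm markers to 0, 4 and 8, with Prm1, Tnp2, Smcp and Acr at 0. Scaled for depth, the cumulus and granulosa markers were at 31.7, 23.5 and 51.2 RPM. Pabpn1l itself had 4 reads in null zygotes, 14 in 2-cell embryos and 47 in WT zygotes, none of them a T-to-C read. These counts are not scaled for depth, and the first 2 lie under the 21 reads that a count of 0 allows, so a loss cannot be read from them. Which part of Pabpn1l was deleted is not stated in the labels.

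Of the 10 genes, 6 have a RefSeq window before their start site in GRCm38, the assembly that mm10 represents. The 250 bases before that start, which for Stim1 and Itpr2 is a transcript start inside the span of the gene, are shown for the genes with the lowest and the highest ratios of total reads between 2-cell embryos and WT zygotes, since these moved in opposite directions. Rgs2 lies on the minus strand of chromosome 1 at 143999338 to 144004149 with its window at chr1:144004150-144004399, Itpr2 on the minus strand of chromosome 6 at 146108299 to 146502258 with its window at chr6:146502224-146502473, and Stim1 on the plus strand of chromosome 7 at 102261514 to 102437319 with its window at chr7:102267569-102267818. Capitals mark the GC box GGGCGG, the CCAAT box and the TATA box TATAAA on either strand, and each sequence runs 5′ to 3′ towards the gene.
Rgs2 upstream window: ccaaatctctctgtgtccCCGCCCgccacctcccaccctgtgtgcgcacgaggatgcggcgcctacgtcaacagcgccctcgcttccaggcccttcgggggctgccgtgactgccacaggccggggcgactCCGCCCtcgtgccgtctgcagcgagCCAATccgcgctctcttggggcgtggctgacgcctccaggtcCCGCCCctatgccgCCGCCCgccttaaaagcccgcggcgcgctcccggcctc
Itpr2 upstream window: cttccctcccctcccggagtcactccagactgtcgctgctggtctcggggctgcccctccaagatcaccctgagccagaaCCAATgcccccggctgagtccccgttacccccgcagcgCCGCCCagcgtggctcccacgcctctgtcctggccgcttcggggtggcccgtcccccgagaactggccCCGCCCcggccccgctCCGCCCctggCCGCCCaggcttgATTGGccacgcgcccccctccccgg
Stim1 upstream window: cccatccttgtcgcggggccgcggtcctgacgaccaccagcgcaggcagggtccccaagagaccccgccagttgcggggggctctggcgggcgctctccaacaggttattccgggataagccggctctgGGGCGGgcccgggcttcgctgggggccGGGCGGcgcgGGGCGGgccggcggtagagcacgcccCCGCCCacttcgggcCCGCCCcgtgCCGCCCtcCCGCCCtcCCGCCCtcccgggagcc
Rgs2 held 4 GC boxes and 1 CCAAT box, Itpr2 held 4 and 2, and Stim1 held 8 and 0. No TATAAA stood in any of the 6 genes' windows. GGGCGG stood in 5 of the 6 genes, where it stands in 32.9% of 27025 genes with a window, CCAAT in 2 of 6 (34.5%), and TATAAA in 0 of 6 (13.0%). The windows had a GC content of 72.4% in Rgs2, 74.4% in Itpr2 and 78.4% in Stim1, with 30, 22 and 31 CpG pairs, where the median gene had 52.0% and 6. The falling and the rising gene thus had alike GC-rich windows, which is a description of sequence and not of activity.

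RGS2 speeds the shut-off of G protein signals, and in mouse eggs it is known to restrain calcium release before fertilization. Rgs2 had 1844 reads in null zygotes, 307 in 2-cell embryos and 5922 in WT zygotes, or 1393, 79.3 and 1980 RPM, the reads per 1000000 reads of the column after scaling by trimmed mean of M-values (TMM). It was far below its WT zygote level in 2-cell embryos and moderately below it in null zygotes, and the 95% counting intervals of the 3 levels did not overlap. The ratio of 2-cell embryos to WT zygotes was 0.0400 (95% interval 0.0288 to 0.0542), and its log2 ratio of -4.63 stood at percentile 0.479 of the 11262 genes tested. The exact conditional binomial test with Benjamini-Hochberg adjustment passed this fall (adjusted p = 5.62e-239), and it had already been seen when these genes were chosen. The ratio of null to WT zygotes was 0.703 (0.610 to 0.809, adjusted p = 4.28e-05 by the exact conditional binomial test), which passed on p but not the 2-fold demanded of a call. With edgeR's exact test at an assumed biological variation of 0.4, which allows for differences between embryos that the column pairs cannot show, the 2-cell fall kept its call (adjusted p = 5.01e-05), and the null difference no longer passed on p (adjusted p = 1).

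IP3 receptors release calcium from the endoplasmic reticulum, and ITPR1 is known as the main type in mouse eggs. Itpr2 had 88 reads in null zygotes, 7 in 2-cell embryos and 394 in WT zygotes, or 66.5, 1.81 and 132 RPM. In 2-cell embryos it was at 1 molecule of 7 reads, with a ratio to WT zygotes of 0.0137 (0.000341 to 0.0796, adjusted p = 6.23e-18 by the exact conditional binomial test), at percentile 0.124 of all genes. This fall too was known when the genes were chosen. The ratio of null to WT zygotes was 0.505 (0.250 to 0.941), and the adjusted p of 0.387 from the exact conditional binomial test did not pass. Itpr1, on chromosome 6 at 108213083 to 108551116, had 96 reads in null zygotes, 353 in 2-cell embryos and 175 in WT zygotes. Its levels were 72.5, 91.1 and 58.5 RPM with overlapping intervals, and it had ratios of 1.24 (0.592 to 2.49) for null zygotes and 1.56 (0.946 to 2.63) for 2-cell embryos against WT zygotes, neither of which was called. Itpr3, on chromosome 17 at 27057002 to 27122223, had 8, 21 and 2 reads in the same order of groups, all at or under the 21 reads that a count of 0 allows, so no fold is given. Among the 3 receptor genes, Itpr2 alone was called lower at the 2-cell stage, under each alternative tried.

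**Figure D1:**
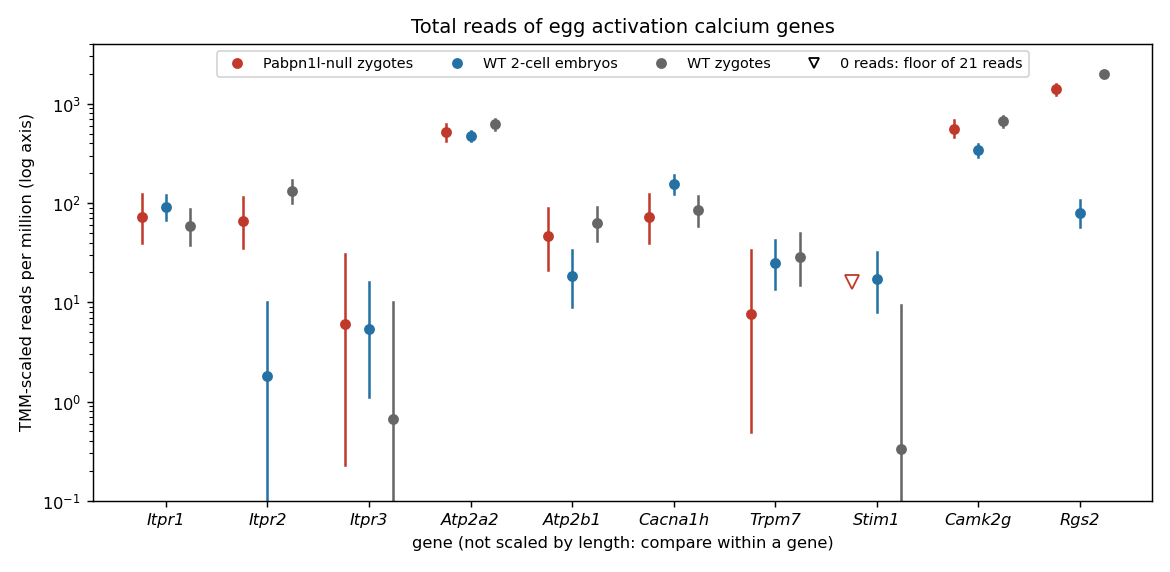
TMM-scaled total reads in RPM of each gene (log axis) in Pabpn1l-null zygotes, WT 2-cell embryos and WT zygotes, 1 column each; lines are exact 95% Poisson intervals on molecules of 7 reads, drawn down to 0.1, and the open triangle marks 0 reads at the floor of 21 reads. Rgs2 and Itpr2 of the 2-cell embryos lie far under both zygote columns. The Stim1 point of 2-cell embryos lies above that of WT zygotes, with overlapping intervals.

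Of the calcium pump genes, Atp2b1 fell in 2-cell embryos and Atp2a2 was not called. Atp2a2, on chromosome 5 at 122453513 to 122502225, encodes SERCA2, which pumps calcium back into the endoplasmic reticulum. It had 680 reads in null zygotes, 1836 in 2-cell embryos and 1859 in WT zygotes, or 514, 474 and 622 RPM, with the intervals of both zygote columns overlapping, and likewise those of the null and 2-cell columns. The ratio was 0.826 (0.648 to 1.05) for null zygotes and 0.762 (0.640 to 0.908) for 2-cell embryos against WT zygotes. The second of these passed on p (adjusted p = 0.00742, exact conditional binomial test) but not on fold. Atp2b1, on chromosome 10 at 98914630 to 99026143, encodes PMCA1, which exports calcium across the plasma membrane. It had 62 reads in null zygotes, 72 in 2-cell embryos and 189 in WT zygotes. Scaled for depth these were 46.8, 18.6 and 63.2 RPM, with the 2-cell level lowest and its interval clear of the WT zygote interval but not of the null one. Atp2b1 was called lower in 2-cell embryos with a ratio of 0.294 (0.128 to 0.623, adjusted p = 0.00267 by the exact conditional binomial test), but it lost the call with the edgeR exact test at that variation (adjusted p = 0.129). In null zygotes its ratio to WT zygotes was 0.741 (0.305 to 1.63) and not called.

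Of the calcium entry genes, Stim1 rose in 2-cell embryos, while Cacna1h and Trpm7 were not called. Cacna1h encodes the T-type channel CaV3.2 and Trpm7 a divalent cation channel fused to a kinase, and both are known to carry calcium into mouse eggs and zygotes. Cacna1h, on chromosome 17 at 25374285 to 25436334, had 96 reads in null zygotes, 602 in 2-cell embryos and 252 in WT zygotes, or 72.5, 155 and 84.3 RPM. The 2-cell level was highest, its interval clear of both zygote columns, with a ratio to WT zygotes of 1.84 (1.24 to 2.80, adjusted p = 0.00689 by the exact conditional binomial test), short of 2-fold. With RLE factors, which raise the median log2 ratio of all genes in this comparison from 0.04 to 0.28, its log2 ratio was 1.14 in place of 0.88 and it was called higher, while the edgeR exact test at that variation gave an adjusted p of 0.480. The null zygote ratio of Cacna1h was 0.861 (0.426 to 1.64). Trpm7, on chromosome 2 at 126791558 to 126876261, had 10 reads in null zygotes, 97 in 2-cell embryos and 85 in WT zygotes. The null count was the lowest, at a ratio of 0.266 (0.0157 to 1.43) that did not pass, and the 2-cell ratio of 0.881 (0.378 to 2.08) did not pass either. STIM1 senses calcium in the store and opens ORAI channels of the plasma membrane. Stim1 had 0 reads in null zygotes, 66 in 2-cell embryos and 1 in WT zygotes, so it was counted almost wholly in 2-cell embryos. The ratio of 2-cell embryos to WT zygotes was 51.0, with a lower end of 1.48 and no upper end at 1 read. The call was made (adjusted p = 0.0343, exact conditional binomial test). Since 1 read lies under the floor of 21 reads, the size of the rise is not known beyond its lower end. The level intervals overlapped, from 7.96 to 31.9 RPM in 2-cell embryos and up to 9.32 RPM in WT zygotes. Stim1 kept the call under each alternative tried, with adjusted p of up to 0.0494 (exact conditional binomial test), the value with no filter beyond 1 read. Stim1 reached the 20 reads of the main filter only through the 2-cell column, so no fall could have been called for it. In null zygotes a count of 0 allows up to 21 reads, or 15.9 RPM, which is close to the 17.0 of the 2-cell embryos, so a difference between these columns was not detectable.

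CaMKII gamma, encoded by Camk2g on chromosome 14 at 20734873 to 20794157, is the kinase known to be required for calcium to release mouse eggs from meiotic arrest. Camk2g had 744 reads in null zygotes, 1314 in 2-cell embryos and 1983 in WT zygotes, or 562, 339 and 663 RPM. The 2-cell level was the lowest, with an interval clear of both zygote columns, and the zygote intervals overlapped. The ratio of 2-cell embryos to WT zygotes was 0.512 (0.423 to 0.617, adjusted p = 9.03e-12 by the exact conditional binomial test), just short of the 2-fold demanded, and with unadjusted column totals it was called lower. Its adjusted p by the edgeR exact test at that variation was 0.427. The ratio of null to WT zygotes was 0.848 (0.672 to 1.06) and not called.

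**Figure D2:**
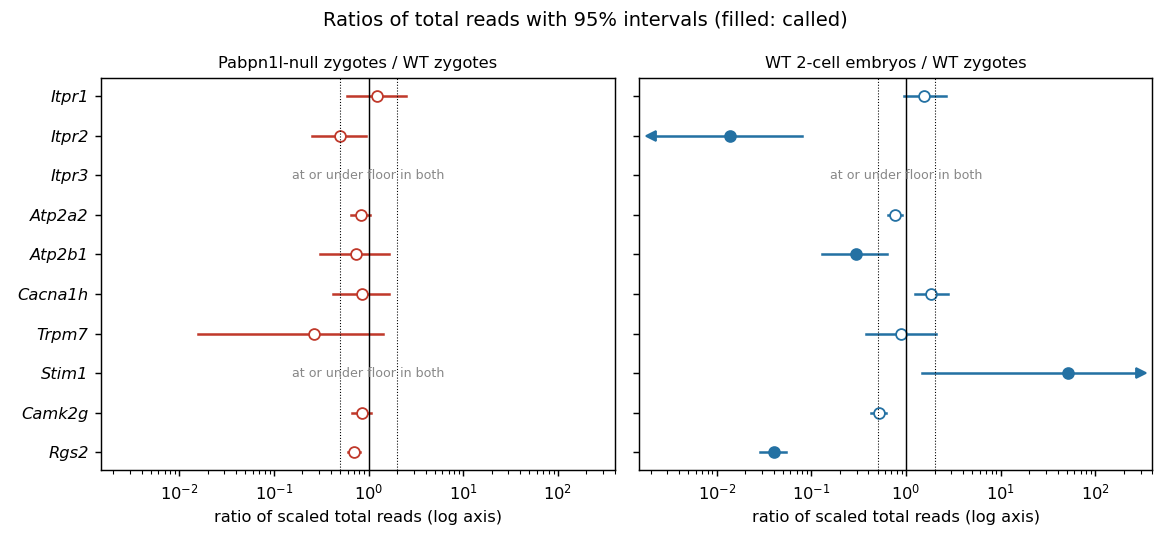
Ratios of scaled total reads (log axis) with exact 95% intervals on molecules for Pabpn1l-null zygotes over WT zygotes (left) and WT 2-cell embryos over WT zygotes (right); filled points were called, dotted lines mark 2-fold, and arrows mark ends off the axis. In the right panel Itpr2, Atp2b1 and Rgs2 were called lower and Stim1 higher, and no point of the left panel was called.

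In 2-cell embryos against WT zygotes, 4 of the 10 genes were called in total reads, 1 higher and 3 lower, where 32.4% of the 11262 genes tested were called (16.4% higher, 15.9% lower). The share of the 10 genes was near that of all genes. Their median log2 ratio was -0.28, or -0.39 without Itpr3, which was at or under the floor in both columns, and the median of all genes was 0.04. With RLE factors 61.4% of all calls were higher, against 50.7% with TMM. In null zygotes against WT zygotes 0 of the 10 genes were called, where 1.36% of all genes were (0.684% higher, 0.675% lower). The exact conditional binomial test gave an unadjusted p under 0.05 for Rgs2 and Itpr2, and edgeR's exact test called 0 as well. The median log2 ratio of the 10 genes was -0.27 there, or -0.35 without Itpr3 and Stim1, beside -0.15 for all genes. While 8 of the 10 values lay below 0, the median of all genes did too, and the value of Stim1 rests on 0 against 1 read. Both comparisons share the WT zygote column, so their values are not independent. In these bulk samples less RNA per embryo and a change of the pool that the scaling refers to cannot be told apart.

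**Figure D3:**
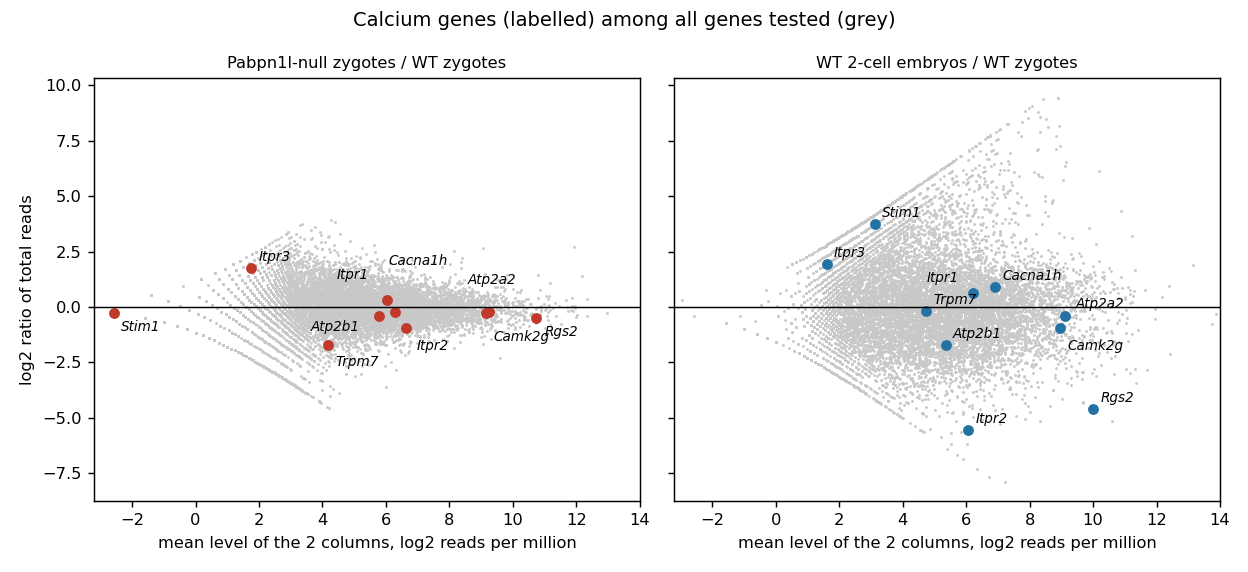
Log2 ratio of total reads against the mean level of both columns (log2 RPM) for all 11262 genes tested (grey) and the 10 calcium genes (labelled), for Pabpn1l-null zygotes over WT zygotes (left) and WT 2-cell embryos over WT zygotes (right). Rgs2 and Itpr2 lie at the lower edge of the right panel, at -4.63 and -5.55, and the labelled genes of the left panel lie between -1.71 and 1.74. The upper end is Itpr3, which is at or under the floor of 21 reads in both columns, and Itpr1 follows at 0.30.

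Rgs2 dominated the reads of the set. The 10 genes together had 3628 reads in null zygotes, 4675 in 2-cell embryos and 10862 in WT zygotes, or 2741, 1207 and 3633 RPM, and Rgs2 held 50.8%, 6.57% and 54.5% of them. Without Rgs2 the sums were 1348, 1128 and 1652 RPM. The order of the 3 sums was the same with and without it, and they lay closer together without it.

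T-to-C reads were few for these genes. Rgs2 had 27 T-to-C reads in null zygotes, 1 in 2-cell embryos and 58 in WT zygotes. Camk2g had 39, 20 and 59 in the same order, and Atp2a2 had 33, 33 and 57. These 3 genes held most of the set's T-to-C reads, 105 in null zygotes, 72 in 2-cell embryos and 203 in WT zygotes. Itpr2 had 5, 0 and 17, Itpr1 0, 9 and 5, and the other 5 genes had at most 4 in any column. Rgs2 was called lower in 2-cell embryos against WT zygotes with a ratio of 0.0133 and an upper end of 0.472 (adjusted p = 0.0495, exact conditional binomial test), a call that was lost with RLE factors (adjusted p = 0.0830) and with no filter on low counts (adjusted p = 0.106). Of 5 genes that could be tested, 1 was called lower and 0 higher, where 5.74% of 4376 genes were called (4.18% higher, 1.55% lower). Of these calls 72.9% were higher, or 48.7% with T-to-C reads set to their own column total. Camk2g had a ratio of 0.262 (0.0429 to 1.09) and Atp2a2 of 0.447 (0.111 to 1.57), and neither passed. In null against WT zygotes 0 of 5 were called, where 0.0457% of all genes were, by the exact conditional binomial test, with 0 of the 5 at an unadjusted p under 0.05 and 0 called by edgeR's exact test. There Camk2g had a ratio of 1.49 (0.414 to 4.91), Atp2a2 of 1.31 (0.325 to 4.59) and Rgs2 of 1.05 (0.227 to 3.93).

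The share of T-to-C reads sets labelled reads against the stored pool of the same gene. Rgs2 had a share of 1.46% in null zygotes (95% interval 0.388% to 3.76%), 0.326% in 2-cell embryos (up to 8.70%) and 0.979% in WT zygotes (0.431% to 1.90%). The median gene with at least 200 reads had 3.02%, 2.09% and 2.17% in the same columns, so Rgs2 lay under the median gene in each, at percentiles 24.2, 4.57 and 12.5, although its intervals in null zygotes and 2-cell embryos hold that median. Camk2g had 5.24% in null zygotes, 1.52% in 2-cell embryos and 2.98% in WT zygotes, and Atp2a2 had 4.85%, 1.80% and 3.07%. For both genes the share was highest in null zygotes and lowest in 2-cell embryos, at percentiles 79.0, 33.3 and 70.4 for Camk2g and 75.6, 41.4 and 72.3 for Atp2a2. Cacna1h had 1.04%, 0.664% and 0.794% from 1, 4 and 2 T-to-C reads, with intervals up to 25.3%, 5.45% and 11.2% that hold the median gene of each column. Itpr1 had 0%, 2.55% and 2.86%, and Itpr2 had 5.68% in null zygotes and 4.31% in WT zygotes, with 0 of 7 reads in 2-cell embryos. Stim1 had 4 T-to-C reads among 66 in 2-cell embryos, or 6.06% (from 0.0133%), an interval too wide to set it apart from the median gene.

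No share differed by Fisher's exact test on molecules adjusted over all genes, with 0 of 7 genes called in either comparison, all at an unadjusted p above 0.05. Of all genes tested for share, 0% were called higher and 0.0167% lower in null against WT zygotes, and 1.84% higher and 0.0579% lower in 2-cell embryos against WT zygotes. The share of 5 of 7 genes was above that of WT zygotes in null zygotes, and that of 1 of 7 in 2-cell embryos. The median share over genes with at least 200 reads differed the same ways, at 3.02% in null zygotes, 2.09% in 2-cell embryos and 2.17% in WT zygotes. Each column has its own such genes, 1402, 3410 and 2901 in that order, so these medians are not of the same genes. Summed over the 10 genes the share was 2.89% in null zygotes, 1.54% in 2-cell embryos and 1.87% in WT zygotes. Whole columns had 3.86%, 4.54% and 3.03%. The set's share did not follow the higher share of the 2-cell column, and neither did that of the median gene. Without Rgs2 the summed share was 4.37%, 1.63% and 2.94%, above the whole column in null zygotes, below it in 2-cell embryos and close to it in WT zygotes. Counted as 1 molecule per read, the share of Camk2g passed as lower in 2-cell embryos (adjusted p = 0.0473, Fisher's exact test).

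**Figure D4:**
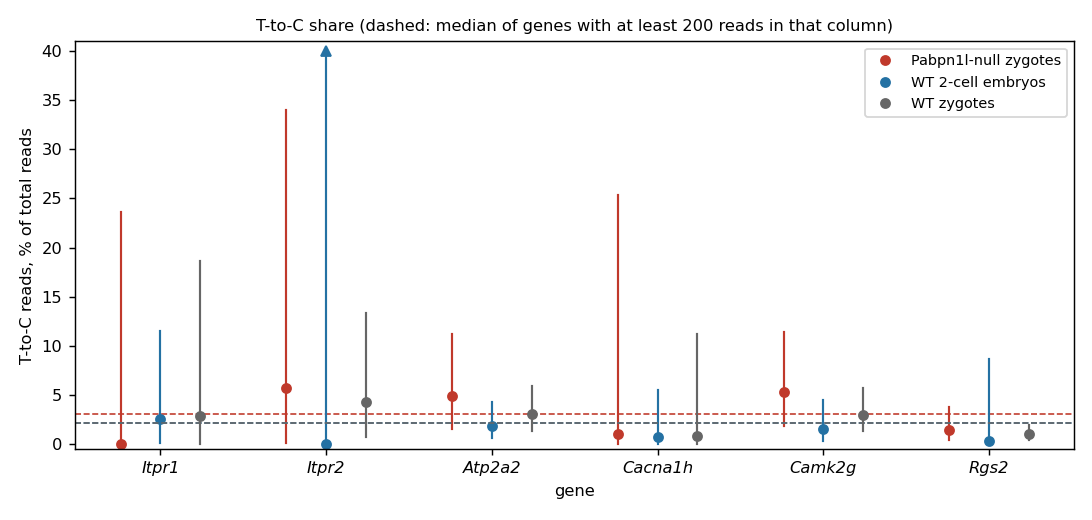
T-to-C reads as a percentage of total reads, with exact 95% Clopper-Pearson intervals on molecules, for the 6 genes with at least 200 reads in at least 1 column, in Pabpn1l-null zygotes, WT 2-cell embryos and WT zygotes. Dashed lines are the median gene of each column (3.02%, 2.09% and 2.17%), and the Rgs2 points lie under them in each group.

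The wider calcium pathway was followed in 6 gene lists that leave out the 10 genes. In 2-cell embryos against WT zygotes 15 of the 73 list genes tested were called higher and 16 lower in total reads, or 42.5%, beside 32.4% of all genes. In null against WT zygotes 0 were called higher and 1 lower, or 1.37%, beside 1.36% of all genes. Of the 31 calls at the 2-cell stage 30 held with RLE factors, 29 with column totals and 15 with the edgeR exact test at that variation, and no sign turned. The edgeR test called 7 list genes higher and 10 lower, beside 26.3% of all genes, so the lists then had no larger share. Among all genes with at least 50 reads, 41.4% were called by the exact conditional binomial test. List genes named below are those with the largest log2 ratios among the called.

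Genes that make and clear IP3 were the list with most rises. Of 16 tested, 6 were called higher and 2 lower in 2-cell embryos, beside 16.4% and 15.9% of all genes. Their median log2 ratio was 0.997, beside 0.04 for all genes. With edgeR's exact test 3 were called higher and 1 lower, as Inpp5b, Pip5k1c, Pip4k2b and Pi4kb lost their calls. Gna11, a G protein subunit that couples receptors to phospholipase C, had 164 reads in 2-cell embryos and 4 in WT zygotes, a ratio of 31.7 with a lower end of 3.43. Itpkc, a kinase that converts IP3, had 129 and 6 reads (ratio 16.6, lower end 2.37), and Pip5k1a, which makes the precursor lipid of IP3, had 117 and 9 (10.04, 1.84 to 210). Plce1, a phospholipase C gene, fell to 142 reads in 2-cell embryos, against 833 in WT zygotes (0.132, 0.0779 to 0.212). The WT zygote counts of Gna11, Itpkc and Pip5k1a lie under the floor of 21 reads, so their ratios are best read by the lower ends. These genes reached the 20 reads needed for a test only through the 2-cell column, so no fall could have been called for them. Plcb3 and Plcg2, not called, also passed only through that column, and the list median of 0.997 includes all of these genes. Pip5k1c, Pip4k2b and Pi4kb passed that filter without the 2-cell column, but their calls are those lost with edgeR's exact test. Plce1, the phospholipase C gene of the list with the most reads, fell. Plcz1, the sperm phospholipase named here after its values were seen, had 0 reads in all columns, which allows up to 21. In null zygotes 0 of the 16 were called, with a median of -0.38, or 0 with the 5 genes at 0 set at their bound.

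Partners of the IP3 receptor and proteins of the calcium store moved in both directions. Of 18 tested, 2 were called higher and 5 lower in 2-cell embryos, beside 16.4% and 15.9% of all genes, with a median of -0.26 (-0.18 with the gene at 0 set at its bound, and close to 0 with RLE factors). Calu, a calcium-binding protein of the secretory pathway, had 157 reads in 2-cell embryos and 1068 in WT zygotes (0.113, 0.0694 to 0.177). Itprip, which encodes a protein that binds the receptor, had 84 and 405 (0.160, 0.0783 to 0.301), and Pdia3, a chaperone of the endoplasmic reticulum, had 73 and 172 (0.328, 0.142 to 0.701). Ahcyl1, whose product IRBIT competes with IP3 for the receptor, rose to 666 reads in 2-cell embryos, against 130 in WT zygotes (3.96, 2.39 to 6.90). Ahcyl1 and Pdia3 lost their calls with edgeR's exact test. Sdf4, a calcium-binding protein of the Golgi, was the 1 list gene called in T-to-C reads, with 135 in 2-cell embryos and 3 in WT zygotes (34.7, lower end 2.94), or 27.4% and 1.26% of its total reads. In null zygotes 0 of the 18 were called (median -0.31).

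Of 8 further entry channel genes tested, 1 was called higher and 2 lower in 2-cell embryos, beside 16.4% and 15.9% of all genes, with a median of 0.07. Stim2, the other store sensor, had 14 reads in 2-cell embryos and 127 in WT zygotes, a ratio of 0.0851 (0.00958 to 0.355). Stim1 and Stim2 were thus called in opposite directions, although Stim1 passed the filter only through its 2-cell reads. Cacna1d, an L-type channel gene, had 13 and 64 reads (0.157, 0.0147 to 0.783), a call lost with RLE factors, and Cacnb3, a channel beta subunit gene, rose with 355 and 131 reads (2.09, 1.21 to 3.77), a call lost with edgeR's exact test. Of 7 pump, exchanger and mitochondrial uptake genes tested, 2 were called higher and 2 lower (median 0.23), beside the same 16.4% and 15.9% of all genes. Atp2c1, the calcium pump of the Golgi, fell to 178 reads in 2-cell embryos, against 1039 in WT zygotes (0.132, 0.0832 to 0.202). Channel genes of the outer mitochondrial membrane moved apart, with 1436 and 334 reads for Vdac1 (3.32, 2.41 to 4.65) and 305 and 823 for Vdac3 (0.286, 0.197 to 0.408), both lost with edgeR's exact test. In null zygotes 0 genes of either list were called, with medians of -0.13 and -0.60.

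Of 16 calmodulin, kinase and phosphatase genes tested, 2 were called higher and 1 lower in 2-cell embryos, with a median of 0.64. Among all genes 16.4% were called higher and 15.9% lower, so neither count exceeded the share of all genes. Ppp3cb, a catalytic subunit of calcineurin, had 178 reads in 2-cell embryos and 23 in WT zygotes (5.97, 1.90 to 28.2), and Rcan1, a regulator of calcineurin, had 624 and 155 (3.11, 1.93 to 5.20). Fbxo43 encodes EMI2, which holds the egg in metaphase II and is marked for destruction after CaMKII phosphorylates it. It fell to 127 reads in 2-cell embryos, against 342 in WT zygotes (0.287, 0.157 to 0.5004). Rcan1 and Fbxo43 lost their calls with edgeR's exact test. In null zygotes 0 of the 16 were called (median -0.16, or 0 with the 2 genes at 0 set at their bound).

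Other RGS genes moved in both directions. Of 8 tested, 2 were called higher and 4 lower in 2-cell embryos, beside 16.4% and 15.9% of all genes. The median was -1.59, or -1.33 with the 2 genes at 0 set at their bound. Rgs17, which acts on Gi and Gz proteins, had 247 reads in null zygotes, 273 in 2-cell embryos and 1368 in WT zygotes. It was called lower in both comparisons, at 0.408 (0.277 to 0.586, adjusted p = 1.55e-05 by the exact conditional binomial test) in null zygotes and 0.154 (0.106 to 0.218) in 2-cell embryos, and the null call was lost with edgeR's exact test. Rgs17 was thus the 1 list gene called in null zygotes, and it had 0 T-to-C reads there, 5 in 2-cell embryos and 28 in WT zygotes. Rgs10 had 22 reads in 2-cell embryos and 115 in WT zygotes (0.148, 0.0290 to 0.503). Rgs16 rose with 243 and 8 reads (23.5, 4.31 to 644), where the 8 reads lie under the floor of 21. Rgs11 with 58 and 0 was at least 2.13-fold higher, taken at 21 reads in WT zygotes, a call lost with column totals. Rgs11 reached the 20 reads needed for a test only through the 2-cell column, so no fall could have been called for it.

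**Figure D5:**
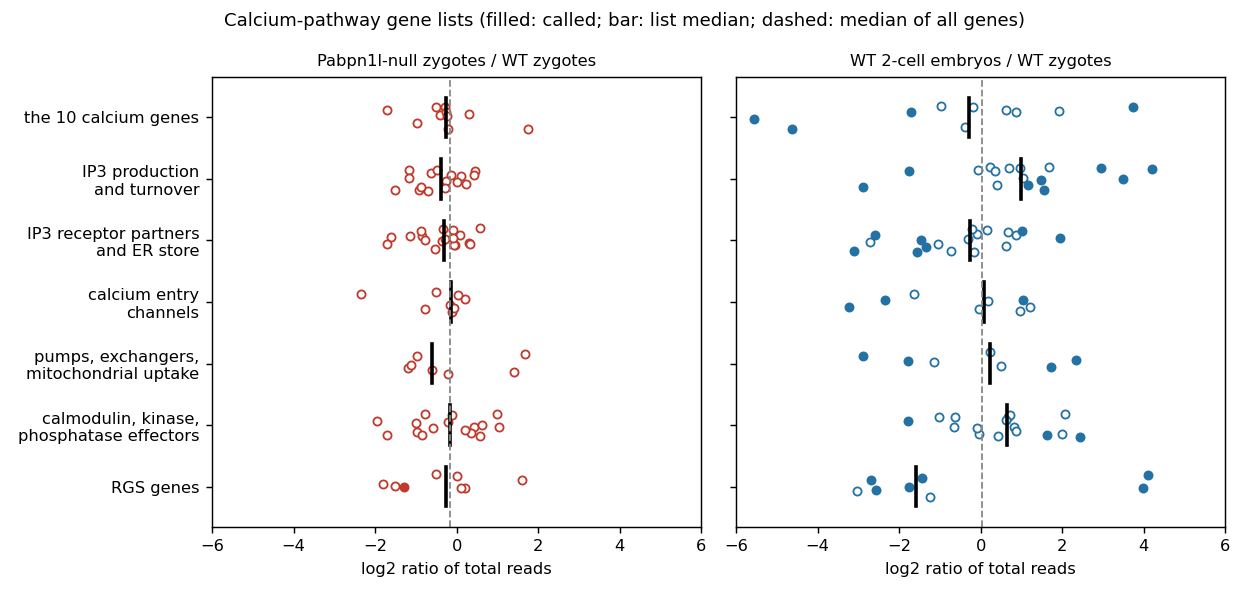
Log2 ratios of total reads for the 10 calcium genes and 6 lists of other calcium-pathway genes, for Pabpn1l-null zygotes over WT zygotes (left) and WT 2-cell embryos over WT zygotes (right); filled points were called, black bars are list medians and the dashed line is the median of all genes tested. The right panel holds 4 filled points among the 10 genes and 31 among the lists, the left panel 0 and 1.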

How the data were processed

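S4U-labelled RNA of 3 groups of mouse embryos was depleted of ribosomal RNA, alkylated with iodoacetamide and sequenced as paired reads, per the labels' protocols. The submitters' processing notes name the mm10 genome; which aligner, counter and annotation were used, and how strand and duplicates were treated, is not given in the sources used. The authors deposited raw counts of reads and of T-to-C reads per row, with 1 column of each per group, and a Positive or Negative call. No source used here says if a column merges the samples of a group.

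Of 30493 rows, 47 with a date in place of a name were left out, and of the rest the row with most summed reads was kept per gene name. Columns were scaled by TMM factors of total reads (1.04, 0.963 and 0.996 for null zygotes, 2-cell embryos and WT zygotes; edgeR 4.0.16, R 4.3.3). Every 7 reads were counted as 1 molecule, because zeros of the null column gave about that number. Genes with at least 20 total or 10 T-to-C reads over the 3 columns were tested by a two-sided exact conditional binomial test on molecules (scipy 1.17.1) with Benjamini-Hochberg adjustment over all genes. A call needs an adjusted p under 0.05 and a 2-fold ratio. T-to-C shares were compared by Fisher's exact test on rounded molecules for genes with at least 20 reads in both columns. Log2 ratios carry 0.5 molecule scaled to column size. Intervals and the floor of 3 molecules, or 21 reads, cover counting error only, since PCR copies are not independent molecules. The planned edgeR quasi-likelihood fit needs a column per sample and could not be made. Alternatives were RLE factors, column totals, other clump rules, other filters, summed rows and edgeR's exact test. The edgeR test was run on reads and not on molecules, so it allows for an assumed variation but not for clumps.

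The members, the gene lists and the tests were chosen with earlier results of these data known. Named genes are the 10 members and, per list, comparison and readout, up to 4 called genes with the largest absolute log2 ratio; 1 gene that the rule names is not reported here. RefSeq windows and coordinates are of GRCm38.p6; the 10 members were matched by symbol, 6 of them with a window.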

Additional observations from a re-analysis of the deposited data

How the results depend on the processing

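No paired analysis was possible because the table has 1 column pair per group, and for the same reason neither the replicate block nor leaving out a replicate was run. With every read counted as 1 molecule, calls among all genes in total reads came to 2686 in null against WT zygotes (2 of the 10 calcium genes, Itpr3 higher and Trpm7 lower, in place of 153 and 0) and 6662 in 2-cell embryos against WT zygotes (3644). In T-to-C reads they came to 784 (2) and 2162 (251), and at the 2-cell stage 4 calcium genes were called lower, Itpr2, Atp2a2, Camk2g and Rgs2, in place of 1. Clumps in the null column alone gave 317, 6662, 9 and 2162 in the same order, with 0, 5, 0 and 4 calcium genes. With edgeR's exact test 1 and 938 genes were called in T-to-C reads, with 2 calcium genes lower at the 2-cell stage, Itpr2 and Rgs2. With RLE factors, and with no filter, 0 calcium genes were called in T-to-C reads, Rgs2 losing its call. Uncalled log2 ratios changed sign for Trpm7 in 2-cell embryos with RLE factors (0.078), and with T-to-C reads scaled by their own total for Rgs2 in null zygotes (-0.19) and Itpr1 in 2-cell embryos (-0.11). Of 272 single-gene values under alternatives, 252 kept direction and side of the threshold, 14 passed anew, 3 lost the call and 3 changed sign. In 2-cell embryos against WT zygotes, clumps in the null column alone repeat the values of every read as 1 molecule. The tally counts these values more than once, also among the 14. The cause of these shifts was not tested beyond the construction of each alternative. Depth limits the T-to-C results, since 5 of the 10 genes had too few such reads to test.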

Other observations

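The authors' Positive or Negative calls followed different cut-offs in the columns. No row of the null zygote column called Negative had more than 15 T-to-C reads, while the highest among Negative rows was 30 in 2-cell embryos and 30 in WT zygotes. Positive rows with no more T-to-C reads than that had a share of at least 20%, with at least 11 total reads in null zygotes and at least 21 in 2-cell embryos and WT zygotes. Per the authors' deposited table, Camk2g was Positive in null zygotes with 39 T-to-C reads, Negative in 2-cell embryos with 20 and Positive in WT zygotes with 59. Rgs2 was Positive in null zygotes with 27, a count that would lie under the highest Negative count of the other columns. Atp2a2 was Positive in all columns and the other 7 calcium genes Negative in all. Positive calls of the null column and of the other columns thus rest on different counts.

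Atp2a2 had a second distinct row, with 44 reads in null zygotes, 34 in 2-cell embryos and 47 in WT zygotes, which the values above leave out. Summing both rows changed no call of Atp2a2.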
